A study of Macaca mulatta with 2 samples.

Results

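Collagen chain genes are the features whose symbol is COL, a number, A and a number, such as COL1A1 or COL16A1, and 41 of the 26533 features in the reference bore such a symbol. Their transcripts were followed through the layers of the posterior eye in 2 spatial transcriptome sections of rhesus macaque, 1 from NHP1 and 1 from NHP2. Both were full-thickness 4 mm punches of retina, choroid and sclera, taken from the right eyes outside the injected areas at 12 weeks and cut at 10 µm. NHP1 was a male of 5 years whose eyes received AAV2-CAG-hRPE65, a vector with a ubiquitous promoter. NHP2 was a male of 6 years whose eyes received AAV8-GRK1-hRPGRco and, in a separate bleb, AAV8-GRK1-mScarlet, both with a photoreceptor promoter. All of these eyes had a vitrectomy, triamcinolone under the Tenon's capsule and a steroid and antibiotic ointment, and right eyes had no adalimumab. The punches therefore came from operated eyes, not from untouched ones, and each animal gave 1 section.

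On a Visium slide, every spot of 55 µm binds the poly(A) tails of RNA released by the overlying tissue, and each bound molecule is counted once through its unique molecular identifier (UMI). A spot can hold several cells or parts of cells, so fewer cells of a type and less RNA per cell cannot be told apart. The NHP1 section had 534 tissue spots with a median of 1473.5 UMIs, and the NHP2 section had 470 with a median of 370.5. Levels are UMIs of a gene per 10000 UMIs of all genes in the same spots. Intervals are exact 95% intervals that cover counting error only, and with 1 section per animal no test between animals or layers was possible. Counts of different genes stand side by side as UMIs, not as relative amounts of protein or of transcript.

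Collagens are proteins whose chains wind around each other into a helical molecule, and each chain is encoded by its own gene. Fibrillar collagens such as type I build the fibres that give the sclera its strength, type IV forms the network of basement membranes, and type VI forms beaded filaments around cells. Collagens of the FACIT group sit on the surface of fibrils, and multiplexins such as type XVIII lie in basement membranes of vessels and epithelia.

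Of the 41 chains, 8 reached 20 UMIs in the tissue of at least 1 section, 16 had between 1 and 19 UMIs, and 17 had 0 UMIs in the tissue of both. Chains detected in both sections numbered 19, and 23 were detected in NHP1 and 20 in NHP2. By class, 8 of 11 fibrillar, 3 of 6 basement membrane, 3 of 4 beaded filament, 6 of 9 FACIT, 1 of 2 multiplexin and 3 of 9 other chains were detected. The 17 chains without a UMI were COL5A3, COL11A2, COL24A1, COL4A4, COL4A5, COL4A6, COL6A6, COL19A1, COL20A1, COL21A1, COL15A1, COL8A2, COL13A1, COL17A1, COL23A1, COL25A1 and COL28A1. A count of 0 allows a level of up to 0.0202 per 10000 in NHP1 and 0.0372 in NHP2, the level of 3 UMIs. A further type IX chain, COL9A3, has no symbol in the feature list and was named from a gene name table. It is no member, and its 182 UMIs in NHP1 and 88 in NHP2 are given only beside its partners.

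All collagen chains together had 874 UMIs in the tissue of NHP1, a level of 5.89 per 10000 (5.50 to 6.29), and 1733 UMIs in that of NHP2, a level of 21.5 (20.5 to 22.5). The sections differed in which chains led, and also in how much of each layer they held. In the regions described below, the neural retina held 1182236 of 1484784 tissue UMIs in NHP1 and 427994 of 805726 in NHP2. Sclera-marker spots held 99768 and 161283. The part of this makeup in the whole-tissue values was not tested. In NHP1, COL16A1, COL6A2 and COL1A2 held 56.2% of the collagen UMIs, and in NHP2, COL1A2, COL6A2 and COL1A1 held 82.3%. FACIT chains made up 37.9% of the collagen UMIs of NHP1 and 10.1% of those of NHP2, whereas fibrillar chains made up 24.0% and 58.0%. Beaded filament chains took 20% and 25.7%, multiplexin chains 9.27% and 3.40%, and basement membrane chains 7.67% and 2.14%. In sclera-marker spots alone, fibrillar chains made up 41.0% of the collagen UMIs in NHP1 and 63.2% in NHP2, and FACIT chains 14.0% and 5.27%.

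The individual chains covered a wide range. COL1A2, which forms type I collagen with COL1A1, had 134 UMIs in NHP1 and 631 in NHP2, and COL1A1 had 58 and 363. COL6A2, a chain of the beaded filaments, had 160 and 433, and COL16A1, a FACIT chain, had 197 and 130. The type I chains and COL6A2 thus had more UMIs in NHP2, the section with fewer UMIs in all, and COL16A1 had fewer there. COL18A1, the type XVIII chain whose end fragment is endostatin, had 81 and 59 UMIs. COL4A2, a chain of the common type IV network, had 55 and 26. The cartilage and vitreous chains COL9A1 and COL9A2 had 59 and 63 UMIs in NHP1 and 19 and 20 in NHP2. Among the rarer chains, COL6A1 had 13 UMIs in each section, COL4A3 had 11 in each, and COL3A1 had 11 in NHP1 and 6 in NHP2. COL10A1 had 2 and 7, COL2A1 2 and 3, and COL4A1 1 and 0.

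**Figure D1:**
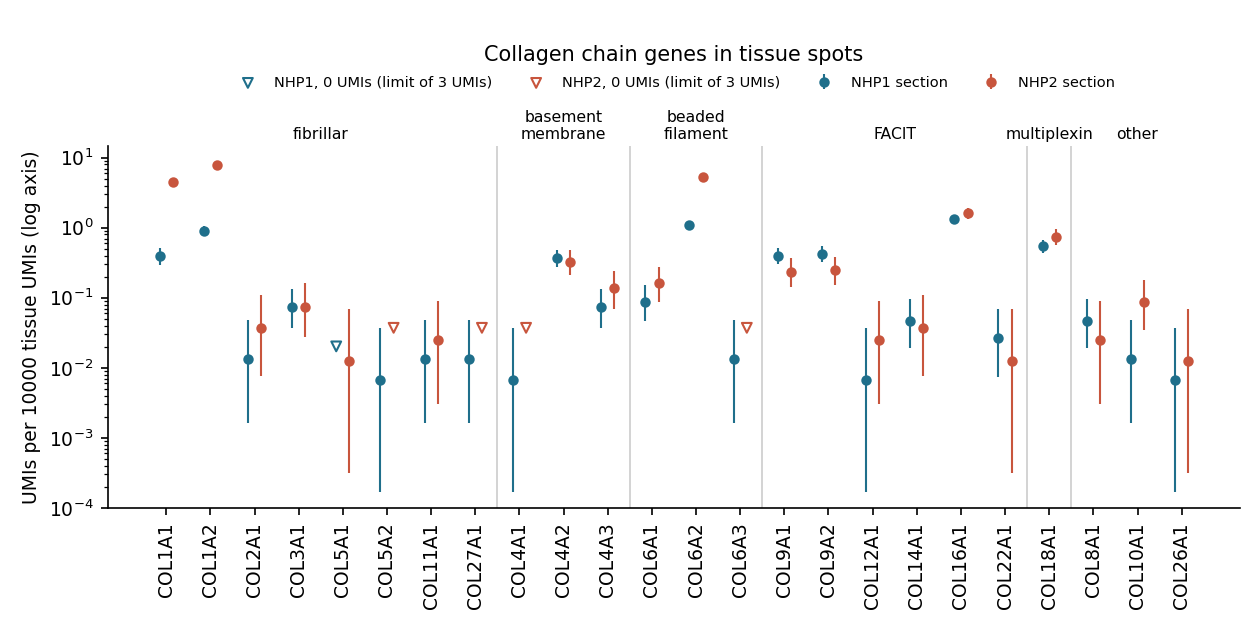
UMIs per 10000 tissue UMIs (log axis) of the 24 chains with at least 1 UMI in tissue, grouped by class, in the NHP1 and NHP2 sections; bars are 95% counting intervals and open triangles mark 0 UMIs at the limit of 3 UMIs. COL1A1, COL1A2 and COL6A2 lie higher in NHP2, at 4.51, 7.83 and 5.37 against 0.391, 0.902 and 1.08 in NHP1, and COL16A1 lies at 1.61 and 1.33. The sections also differ in how much of each layer they hold.

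Regions were set by clustering the spots of each section with all collagens left out, so that no member shaped them, and were labelled by markers on which no collagen stands. The sclera-marker region of NHP1 had 119 spots and was led by PTGES, ANGPTL7 and MYOC. That of NHP2 had 211 spots in 4 clusters, with MBP, HBA, CLEC3B and FBLN1 as their first genes. Sclera markers, such as decorin and lumican, made up 319.8 per 10000 UMIs there in NHP1 and 536 in NHP2, against 8.17 and 9.74 in the neural retina. Neural retina stands for the inner retina-marker region (172 spots in NHP1 and 34 in NHP2) together with a photoreceptor layer-marker region of 107 spots in NHP1. NHP2 had no such photoreceptor region. A region led by SLC39A12, a zinc transporter gene of the RPE marker list, had 64 spots in NHP1 and 38 in NHP2. It carried markers of both RPE and photoreceptors, and was left unnamed. A choroid-marker region of 72 spots was found in NHP1 only, and it held as many RPE as choroid markers (12 each). In NHP2, 24 spots formed an RPE-marker region, and 159 spots of other clusters stayed unlabelled, with 1973 and 27254 UMIs in all. An unlabelled cluster of 58 spots was led by ACTA2 and held 5 RPE, 5 choroid and 7 sclera markers.

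Type I collagen was higher in the sclera-marker region than in the neural retina in both sections. COL1A1 stood at 2.71 per 10000 in the sclera-marker region of NHP1 against 0.0677 in its neural retina, a ratio of 40.0 (17.7 to 102). In NHP2 it stood at 20.6 against 0.234, a ratio of 88.4 (47.5 to 186). COL1A2 had levels of 6.11 and 0.203 in NHP1, a ratio of 30.1 (18.5 to 50.5), and of 34.0 and 0.350 in NHP2, a ratio of 96.9 (58.3 to 174). Over all fibrillar chains the ratio was 29.1 (19.7 to 43.9) in NHP1 and 75.8 (53.0 to 112) in NHP2. The sclera-marker and neural retina intervals were far apart for each type I chain in each section.

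The low fibrillar levels in the neural retina, 0.313 per 10000 in NHP1 and 0.724 in NHP2, are not read as expression there. UMIs also lay on spots outside the tissue, where fibrillar chains had 1.22 and 10.1 per 10000, above the neural retina. Collagens together had 4.93 and 16.4 there against 3.70 and 3.39 in the neural retina. Per spot the order is another one, since spots off tissue held a median of 8 UMIs in NHP1 and 4 in NHP2. Fibrillar UMIs per spot were 0.133 in the neural retina of NHP1 against 0.0149 off tissue, and 0.912 against 0.0194 in NHP2.

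COL1A1 lies on chromosome 16 and COL1A2 on chromosome 3, so their transcripts come from separate loci although their chains join in 1 molecule. The 250 bases before the annotated start of COL1A2 are shown because this chain had the most UMIs of the fibrillar class in both sections. The sequence is from the RefSeq annotation of Mmul_10, the build of the counts, and is written 5′ to 3′ along the gene, with CCAAT or its reverse complement ATTGG in capitals.
COL1A2, chr3:111731588-111731837, minus strand: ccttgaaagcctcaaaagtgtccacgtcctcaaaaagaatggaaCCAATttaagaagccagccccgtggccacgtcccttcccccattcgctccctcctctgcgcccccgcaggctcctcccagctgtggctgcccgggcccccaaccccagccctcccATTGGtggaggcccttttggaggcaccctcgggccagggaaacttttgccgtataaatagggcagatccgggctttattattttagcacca
The window held 2 matches to CCAAT on either strand and 1 to TATAAA. Of the 20782 windows of 250 bases before protein-coding genes, 31.0% held CCAAT and 9.85% held TATAAA on either strand. These matches describe the letters of the window and name no bound factor.

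The ratio of the type I chains was of the same order in both sections. In sclera-marker spots COL1A2 had 2.26 UMIs for each of COL1A1 in NHP1 (1.41 to 3.70) and 1.65 in NHP2 (1.43 to 1.89). COL1A1 and COL1A2 (chr3:111694892-111731587, minus strand) overlap no other gene of the RefSeq annotation. COL3A1, the chain of type III collagen found with type I in many connective tissues, had far fewer UMIs than COL1A1, 11 against 58 in NHP1 and 6 against 363 in NHP2. Of the 11 in NHP1, 7 lay in the choroid-marker region and 2 in the sclera-marker region.

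Beaded filament chains had the same layer pattern, carried by COL6A2. Its level was 8.12 per 10000 in the sclera-marker region of NHP1 against 0.245 in the neural retina, a ratio of 33.1 (21.4 to 52.5). In NHP2 it was 24.4 against 0.210, a ratio of 116 (60.6 to 256). COL6A1, its partner chain, was rare. In NHP2 all 13 of its UMIs were in the sclera-marker region and 0 in the neural retina, at least 11.5-fold higher against the limit of 3 UMIs. In NHP1, 5 lay in the sclera-marker region, 3 in the neural retina and 4 in the choroid-marker region. COL6A3, the long chain of type VI, had 2 UMIs in NHP1 and 0 in NHP2. COL6A2 and COL6A1 lie near each other on chromosome 3 (chr3:648604-684220 and chr3:774273-796717, both on the minus strand).

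The same comparison was made for all genes. A gene was compared when it had 20 UMIs in the tissue of the section, and called when its ratio was at least 2 or at most 0.5. In NHP1, 3 of 8 chains (COL1A1, COL1A2 and COL6A2) were at least 2-fold higher in the sclera-marker region than in the neural retina, beside 10.4% of the 7792 genes compared. None of the 8 was at most 0.5, beside 25.8% of all. In NHP2, 6 of 7 chains were at least 2-fold higher, beside 14.9% of 6404 genes, and 1, COL9A2, was at most 0.5, beside 32.2%. The median ratio was 1.34 over the chains and 0.790 over all genes in NHP1, and 5.54 and 0.758 in NHP2. In NHP2, sclera-marker spots held 333 of the 363 UMIs of COL1A1, 548 of the 631 of COL1A2 and 394 of the 433 of COL6A2. COL9A2 had 20 UMIs in NHP2, 15 of them in the neural retina, and met the minimum only through the region where it is high. COL4A2 had 26, of which 9 lay in sclera-marker spots, and would miss the minimum without those spots. Its interval in NHP2, 0.859 to 6.54 around a ratio of 2.39, includes 1. These counts thus only describe the chains with enough UMIs, and the 33 chains of NHP1 and 34 of NHP2 below the minimum are not in them.

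**Figure D2:**
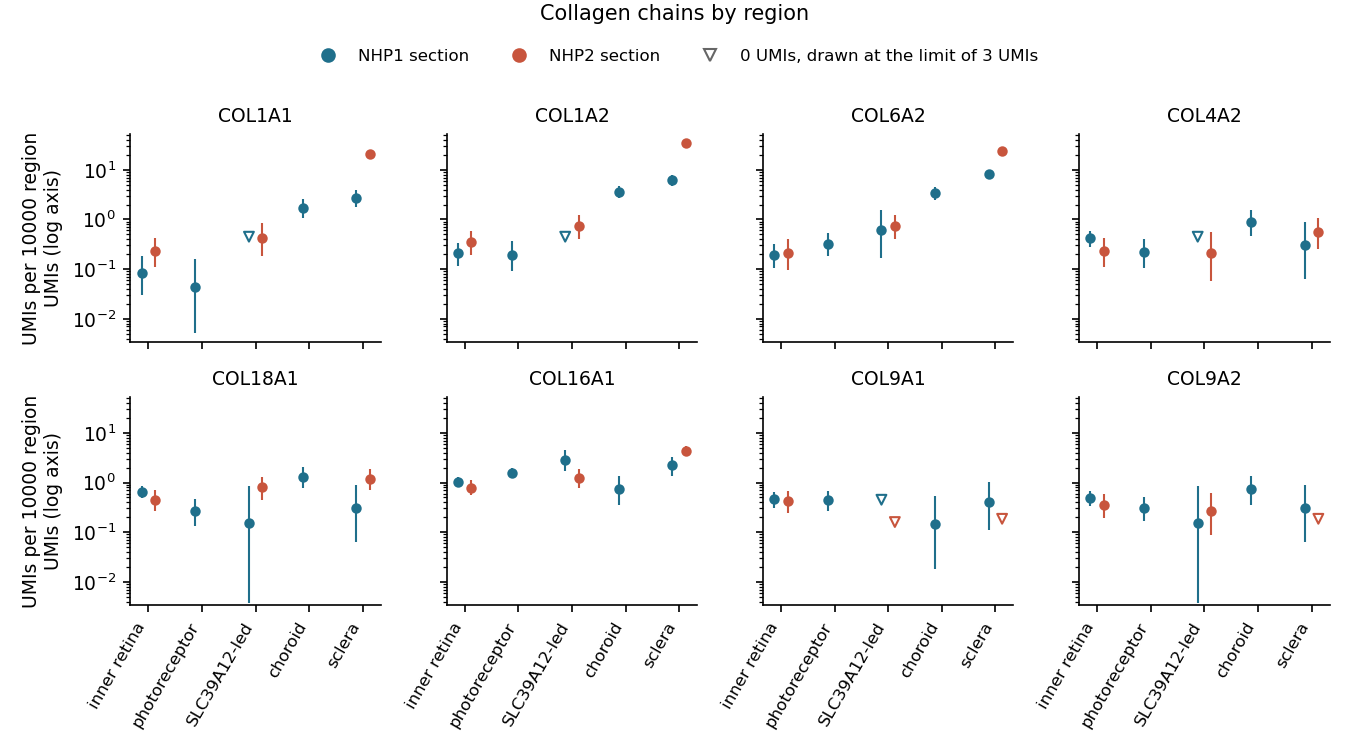
UMIs per 10000 UMIs of the region (log axis) for the 8 chains with at least 20 UMIs, in the regions labelled by inner retina, photoreceptor, choroid and sclera markers and in the SLC39A12-led region; bars are 95% counting intervals, and open triangles mark 0 UMIs at the limit of 3 UMIs. COL1A1, COL1A2 and COL6A2 are highest in the sclera-marker region of each section, COL18A1 and COL4A2 of NHP1 have their highest values in the choroid-marker region, and COL16A1 stays within 0.735 and 4.40 everywhere.

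By share of collagen UMIs, FACIT chains were the leading class in the neural retina. They made up 59.0% of the collagen UMIs of the neural retina in NHP1 and 46.9% in NHP2, where fibrillar chains made up 8.47% and 21.4%. In the sclera-marker region they made up 14.0% and 5.27%, and off tissue 33.7% and 13.5%. Off tissue the FACIT level was 1.66 per 10000 in NHP1, below the 2.18 of the neural retina. In NHP2 it was 2.21, above the 1.59 of the neural retina. The FACIT level in the neural retina of NHP2 is therefore not read as expression there. Per spot, FACIT UMIs were fewer off tissue than in the neural retina in both sections. The FACIT level was 3.11 per 10000 in the sclera-marker region of NHP1 against 2.18 in the neural retina, a ratio of 1.42 (0.948 to 2.07), and 4.59 against 1.59 in NHP2, a ratio of 2.89 (2.05 to 4.07). As UMIs per spot, on which neural retina spots hold more UMIs of all genes, the FACIT ratio was 0.282 in NHP1 and 0.175 in NHP2.

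COL16A1 had the most UMIs in the neural retina among the 41 chains, with 146 in NHP1 and 34 in NHP2, while the unnamed COL9A3 had 147 and 49. Its gene lies at chr1:192965557-193019204 on the plus strand. It stood at 1.23 per 10000 in the neural retina of NHP1 and 0.794 in that of NHP2, beside 0.688 and 1.04 off tissue, and at 2.21 and 4.40 in the sclera-marker regions, which gives ratios of 1.79 (1.09 to 2.81) and 5.54 (3.63 to 8.6). As UMIs per spot both turned, to 0.353 and 0.336. Within the neural retina of NHP1 it was 1.57 in the photoreceptor layer-marker region and 1.02 in the inner retina-marker region, a ratio of 1.53 (1.09 to 2.15). It also varied among the inner retina-marker clusters of that section, from 0.512 in the cluster of 66 spots to 1.56 in that of 91 and 2.31 in that of 15. The SLC39A12-led region had 2.85 in NHP1, which is 2.79 (1.59 to 4.66) times the inner retina-marker level, and 1.23 in NHP2, which is 1.55 (0.870 to 2.70) times that level. The NHP2 interval includes 1, so no difference was detectable at this depth.

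COL16A1 in the sclera-marker spots of NHP2 differed between clusters. Of its 71 UMIs there, 62 lay in the cluster of 82 spots, at 5.87 per 10000. The clusters of 60 and 48 spots had 1.91 and 1.29. That of 21 spots had 0 UMIs, which allows up to 8.84 per 10000. The map of spots shows it as a band along 1 edge of the NHP2 sclera-marker region. Moran's I, a score near 0 without a spatial pattern and higher when neighbouring spots are alike, was deposited by the authors. For COL16A1 it was 0.004 in NHP1 and 0.158 in NHP2.

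The type IX chains, whose collagen decorates type II fibrils, lacked the sclera-marker rise of type I. COL9A1 stood at 0.448 per 10000 in the neural retina of NHP1 against 0.401 in the sclera-marker region, a ratio of sclera-marker to neural retina of 0.894 (0.235 to 2.43). COL9A2 had a ratio of 0.726 (0.145 to 2.25), and both intervals include 1. In NHP2, COL9A1 had 18 UMIs in the neural retina and 0 in the sclera-marker region, at least 2.26-fold lower there, and COL9A2 had 15 and 0, at least 1.88-fold lower. Off tissue, COL9A2 had 0.554 per 10000 in NHP1 and 0.650 in NHP2, above its neural retina levels of 0.414 and 0.350. These levels of COL9A2 are therefore not read as expression there. COL9A1 had 0.363 (0.219 to 0.567) off tissue in NHP1, beside 0.448 (0.336 to 0.586) in the neural retina. In NHP2 it had 0.390 (0.0804 to 1.14) off tissue, on 3 UMIs, beside 0.421 (0.249 to 0.665). The intervals overlap in both sections, so COL9A1 in the neural retina could not be told apart from the off-tissue level. In the RefSeq annotation, genes on the opposite strand overlap COL9A1. The sums of both chains were close, with 1.07 UMIs of COL9A2 for each of COL9A1 in NHP1 and 1.05 in NHP2. COL9A3, the unnamed partner, had sclera-marker to neural retina ratios of 0.403 (0.129 to 0.962) and 0.271 (0.0842 to 0.676). The SLC39A12-led regions had 0 UMIs of COL9A1 in both sections, which in NHP2 is at least 2.62-fold lower than in the inner retina-marker region.

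Basement membrane chains showed no difference between the retina and the sclera-marker region that this depth could detect. Summed over type IV, the level was 0.401 per 10000 in the sclera-marker region of NHP1 and 0.398 in the neural retina, and in NHP2 it was 0.620 and 0.397, with ratios of 1.01 and 1.56 (0.639 to 3.61). Most of these UMIs were COL4A2, with 55 of 67 type IV UMIs in NHP1. Its partner COL4A1 had 1 UMI in NHP1 and 0 in NHP2, against 55 and 26 of COL4A2. COL4A3, a chain of the type IV network of specialised basement membranes, had 11 in each section. Within the neural retina of NHP1, type IV was lower in the photoreceptor layer-marker region than in the inner retina-marker region, with a ratio of 0.482 (0.221 to 0.967). The photoreceptor layer-marker level was 0.240, beside 0.249 (0.132 to 0.425) off tissue, and is therefore not read as expression there.

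COL4A1 and COL4A2 are annotated head to head on chromosome 17, COL4A1 on the minus strand and COL4A2 on the plus strand, and the bases between their starts are shown because the UMIs of the neighbours differed so widely. The interval has 115 bases and 77.4% G or C, and holds 1 match to CCAAT in capitals.
COL4A1 to COL4A2, chr17:91748808-91748922, plus strand: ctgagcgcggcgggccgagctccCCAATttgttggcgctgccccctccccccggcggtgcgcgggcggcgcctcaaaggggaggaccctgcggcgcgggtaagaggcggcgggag
The other type IV genes lie in the same arrangement, with 15 bases between COL4A4 and COL4A3 and 1322 between COL4A6 and COL4A5. Of these, COL4A3 alone had UMIs. In the RefSeq annotation, genes on both strands overlap COL4A2, and 2 overlap COL4A1. The counted features bear Ensembl gene identifiers, so the overlaps in the annotation used for counting may differ. How the counting treated strand is not given in the sources used here. The cause of the difference in UMIs between COL4A1 and COL4A2 was not tested, and the bases shown only describe the interval.

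COL18A1 and COL4A2 had their highest levels of NHP1 in the choroid-marker region. This region held more than choroid, with RPE markers at 236 per 10000, choroid markers at 30.8, sclera markers at 90.9 and melanocyte markers at 68.9, and their part in the result was not tested. COL18A1 was 1.32 per 10000 there, 0.499 in the neural retina and 0.301 in the sclera-marker region, and its ratio to the sclera-marker region was 4.40 (1.28 to 23.3). COL4A2 was 0.881 there against 0.338 and 0.301, with a ratio to the neural retina of 2.61 (1.24 to 5.07) and to the sclera-marker region of 2.93 (0.791 to 16.2). Their levels in the sclera-marker region rest on 3 UMIs each. In NHP2, which had no choroid-marker region, COL18A1 was 1.18 in the sclera-marker region and 0.444 in the neural retina, a ratio of 2.65 (1.33 to 5.30). It was 2.20 (0.808 to 4.79) in the unlabelled spots of NHP2, on 6 UMIs, so the sclera-marker level was not the highest there. In the retina of NHP1, COL18A1 was lower in the photoreceptor layer-marker region than in the inner retina-marker region, with a ratio of 0.402 (0.194 to 0.770). Off tissue, COL18A1 had 0.440 (0.279 to 0.660) in NHP1, above its 0.261 in the photoreceptor layer-marker region and 0.301 in the sclera-marker region. These levels of COL18A1 are therefore not read as expression there. Its neural retina interval in NHP1, 0.380 to 0.644, overlaps the off-tissue interval. In NHP2 it had 0.260 off tissue, on 2 UMIs.

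Type VI and COL16A1 were lower in the choroid-marker than in the sclera-marker region, and for fibrillar chains the order turned with the scale. Choroid-marker spots had 13.6 collagen UMIs per 10000 against 22.3 in sclera-marker spots, a ratio of 0.611 (0.50 to 0.746). COL6A2 was 3.38 against 8.12, a ratio of 0.416 (0.283 to 0.605), and COL16A1 was 0.735 against 2.21, a ratio of 0.333 (0.141 to 0.733). COL1A1 had a ratio of 0.624 (0.342 to 1.13) and COL1A2 of 0.589 (0.396 to 0.872). All fibrillar chains had 0.644 (0.471 to 0.880), but 1.45 (1.06 to 1.98) as UMIs per spot and 1.14 (0.576 to 2.35) in piece 2. Of the 8 chains, 3 were at least 2-fold higher in choroid-marker spots, beside 21.5% of 7712 genes, and 3 were at most 0.5, beside 16.2%. Against the neural retina, 5 of 8 chains were at least 2-fold higher, beside 13.6% of 7792 genes, and 1, COL9A1, was at most 0.5, beside 24.9%. COL1A1 was 25 times and COL1A2 17.7 times the neural retina level in choroid-marker spots. The order between the choroid-marker and sclera-marker regions differed by piece of tissue, since the ratio over all chains was 0.482 in piece 1 of NHP1 and 1.05 in piece 2.

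Levels were also set out by distance from the neural retina, without the labels of the outer layers. The start is the labelled neural retina itself and the spots are of the same sections, so this is no independent check. Fibrillar chains rose from 0.313 per 10000 in the neural retina of NHP1 to 2.96 at 1 spot spacing from it, 6.43 at 2 and 6.77 at 3. Beyond 7 spacings they stood at 18.2, and the bins between rest on 10 and 12 spots. In NHP2 they went from 0.724 to 1.19 at 1 spacing, 10.9 at 2, 44.8 at 3 and 66.6 at 4, with 49.1 in the farthest bin of 19 spots. FACIT chains of NHP1 were between 1.69 and 2.38 up to 3 spacings, 5.35 and 5.28 in the thin bins that follow, on 4 UMIs each, and 2.14 in the farthest bin. In NHP2 they were 1.59 in the neural retina, 0.808 at 2 spacings and 7.84 at 4. Distances were measured within a piece of tissue, and in NHP2 only 1 of the 2 large pieces held neural retina.

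**Figure D3:**
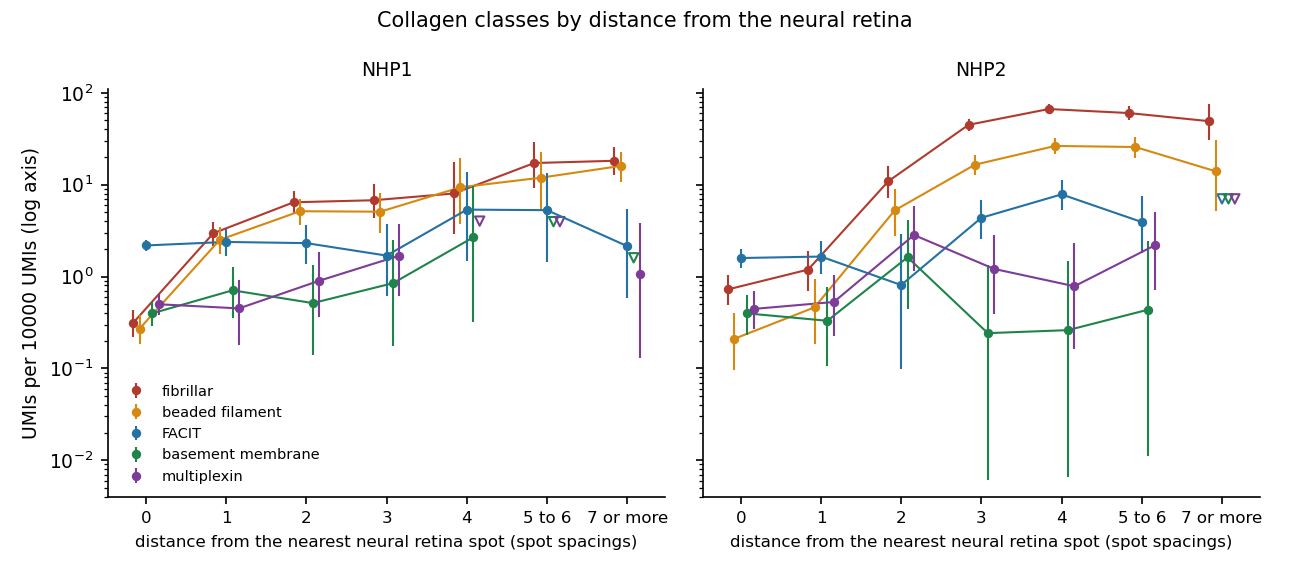
UMIs per 10000 UMIs (log axis) of 5 collagen classes against the distance from the nearest neural retina spot of the same piece, in spot spacings, for NHP1 (left) and NHP2 (right); bars are 95% counting intervals and open triangles mark 0 UMIs at the limit of 3 UMIs. Fibrillar chains climb from 0.313 to 18.2 in NHP1 and from 0.724 to 66.6 at 4 spacings in NHP2.

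Between the animals, sclera-marker spots of NHP2 held 87.0 collagen UMIs per 10000 and those of NHP1 22.3, a ratio of 3.91 (3.39 to 4.52). The fibrillar ratio was 6.02 (4.85 to 7.56), the beaded filament ratio 2.86 (2.27 to 3.64) and the FACIT ratio 1.48 (0.959 to 2.32). By chain, COL1A1 was 7.63 (5.15 to 11.8) and COL1A2 5.56 (4.26 to 7.36) times higher in NHP2. COL6A2 was 3.01 (2.36 to 3.87) times, COL18A1 3.92 (1.2 to 20.7) times and COL16A1 2.0 (1.22 to 3.38) times higher. COL16A1 and FACIT had ratios of 0.881 and 0.656 once the 10% of sclera-marker spots with the most collagen UMIs were left out of each section. Of 5 chains with 20 UMIs over both regions, 4 were at least 2-fold higher, beside 14.2% of 2522 genes, and 0 were at most 0.5, beside 11.7%. The median ratio was 3.92 over the chains and 1.04 over all genes. COL18A1, 1 of the 4, had 3 UMIs in NHP1 and 19 in NHP2 and met the minimum through the section where it is high. In the inner retina-marker regions the ratio over all chains was 0.878 (0.714 to 1.08) and that over fibrillar chains 2.1 (1.2 to 3.70), from 25 UMIs in NHP1 and 31 in NHP2. There 0 of 7 chains passed in either direction, beside 3.85% and 4.47% of 7178 genes.

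The size of the difference depended on the piece of tissue in NHP1. The larger piece of NHP1, piece 1, held 32.3 collagen UMIs per 10000 in its 82 sclera-marker spots, and piece 2 held 10.9 in 37, a ratio of 2.97 (2.16 to 4.15) within 1 animal. The pieces of NHP2 held 84.8 and 88.4. Each NHP2 piece exceeded piece 1 of NHP1 by 2.62 and 2.73 times and piece 2 by 7.80 and 8.13 times. Fibrillar chains exceeded piece 1 by 3.52 and 4.00 times, and COL6A2 by 2.28 and 1.78 times, the last under the fold of 2.

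Markers moved with this split. Sclera markers were 469 per 10000 in piece 1 of NHP1 and 151 in piece 2, and 509 and 551 in the pieces of NHP2. Fibroblast markers (PDGFRA, PDGFRB, LOXL1, FAP and DPT) were 16.6 and 5.54 in the pieces of NHP1, and photoreceptor markers 38.4 and 113. Against piece 1 of NHP1, the sclera markers of NHP2 were 1.08 and 1.17 times as high and the fibroblast markers 0.770 and 0.664 times, while the fibrillar chains were higher as given above. Over the whole regions, fibroblast markers had a ratio of 1.02 (0.804 to 1.30), with 4 of 5 detected and FAP at 0 in each. Melanocyte markers were 19.6 per 10000 in NHP1 and 27.5 in NHP2, Schwann cell markers 1.5 and 3.60 and Müller glia markers 38.8 and 21.5. Skeletal muscle markers had 1 UMI in each. The part of these cell types in the result was not tested, and the animal, the library and the makeup of the punch cannot be told apart here.

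**Figure D4:**
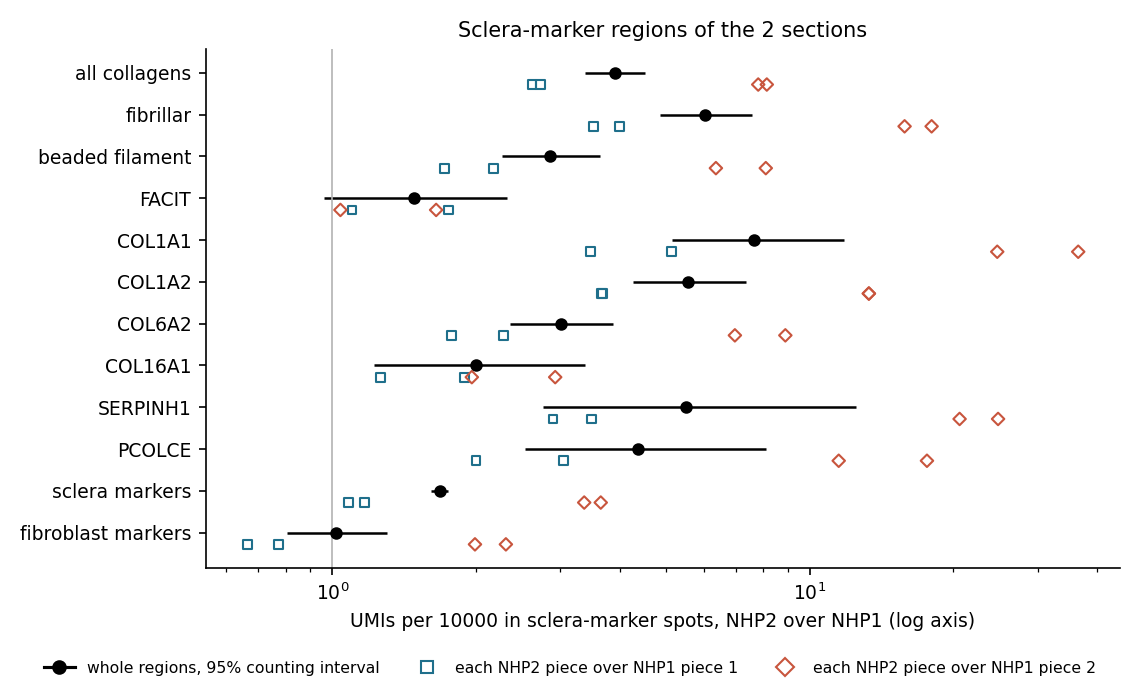
Ratio of UMIs per 10000 in sclera-marker spots, NHP2 over NHP1 (log axis), for collagen classes and chains, SERPINH1, PCOLCE and 2 marker lists; black points with bars are whole regions with 95% counting intervals, blue squares are each NHP2 piece over NHP1 piece 1 and red diamonds over NHP1 piece 2. Fibrillar chains are at 6.02 for the whole regions and between 3.52 and 18 for single pieces, while fibroblast markers lie on both sides of 1, between 0.664 and 2.31.

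Between the sclera-marker region and the neural retina, the enzymes and chaperones that make collagen followed the chains in part. On a list of genes for collagen synthesis, processing, cross-linking, breakdown and binding, 17 were compared in each section. In NHP1, 9 of the 17 were at least 2-fold higher in the sclera-marker region than in the neural retina, and in NHP2 13 were, while 2 in each (P3H3 and DDR1) were at most 0.5, beside the shares of all genes given above. Of 9 synthesis and folding genes compared, 3 in NHP1 and 6 in NHP2 were higher. SERPINH1, the chaperone HSP47 of newly made collagen, had ratios of 3.55 in NHP1 and 17.7 in NHP2. In sclera-marker spots of NHP1 it had only 8 UMIs in piece 1 and 1 in piece 2, so ratios that rest on them are imprecise. CRTAP, part of the prolyl 3-hydroxylation complex, had 5.47 and 4.93, and PPIB, its cyclophilin, 2.34 and 1.58. P4HB, the disulfide isomerase that is also a subunit of prolyl 4-hydroxylase, had 1.87 and 3.07. Choroid-marker over sclera-marker spots of NHP1 gave another order than for the chains. There 6 of the 17 listed genes, among them SERPINH1, were at least 2-fold higher, beside 21.5% of 7712 genes. At most 0.5 were 0, beside 16.2%. The median was 1.10 and PCOLCE had 1.51, where fibrillar chains had 0.644.

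Of the 7 propeptide processing genes only PCOLCE, which speeds the removal of the type I propeptide, was compared. It had a ratio of 16.2 in NHP1, from 13 and 2 UMIs in sclera-marker spots of pieces 1 and 2, and was at least 93.8-fold higher in NHP2. LOXL1, a cross-linking enzyme, had 9.22 and 7.58. The matrix metalloproteinases MMP2 and MMP14 had 19.8 and 8.62 in NHP1, and 32.8 and 13.6 in NHP2. MRC2, the receptor that takes up collagen fragments, had 16.5 and 39.3. DDR1, a collagen receptor of epithelia and glia, had 0.191 and 0.50. Between the animals, SERPINH1 and PCOLCE were 5.50 and 4.37 times higher in the sclera-marker region of NHP2, MMP2 2.14 times, MRC2 2.35 times and MMP14 2.78 times. These are the 5 of 10 compared genes that were at least 2-fold higher, beside 14.2% of 2522 genes, and 0 were at most 0.5, beside 11.7%. Of 4 synthesis and folding genes 1 was at least 2-fold higher, with a median ratio of 1.03. Against piece 1 of NHP1, PCOLCE was 2.0 and 3.05 times and SERPINH1 2.90 and 3.49 times higher, and against piece 2, which held 2 and 1 UMIs of them, 11.5 and 17.6 and 20.6 and 24.8 times.

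Within the NHP2 sclera-marker region, fibrillar levels ranged from 41.3 to 61.6 per 10000 over the 4 clusters. FACIT chains were 6.15, 1.91 and 1.29 in the clusters of 82, 60 and 48 spots. Beaded filament chains were 25.2, 27.3 and 24.4 in the clusters of 82, 60 and 48 spots and 8.84 in that of 21. A single spot held at most 28 UMIs of COL1A2 and 21 of COL1A1 in NHP2, and 6 and 3 in NHP1. Moran's I of the authors was 0.30 and 0.312 for COL6A2, 0.186 and 0.198 for COL1A2 and 0.126 and 0.217 for COL1A1 in NHP1 and NHP2. It was between -0.013 and 0.023 for COL4A2, COL18A1, COL9A1 and COL9A2.

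At least 1 collagen UMI was found in 65.2% of the tissue spots of NHP1 (61.0 to 69.2) and 58.9% of those of NHP2 (54.3 to 63.4). Off tissue the shares were 3.71% of 4284 spots and 1.99% of 4027, at median depths of 8 and 4 UMIs. Among spots with at least 69 UMIs, thinned to that number, 6.40% of 531 in NHP1 and 30.8% of 354 in NHP2 kept a collagen UMI. Shallower spots were left out of these shares, and without thinning 66.8% of NHP1 and 83.7% of NHP2 spots with at least 200 UMIs held a collagen UMI.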

How the data were processed

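The authors deposited raw counts of UMIs per gene and spot, made with Space Ranger 2.1.0 against Mmul_10 with the transgene sequences added, with spot positions, a tissue mark and a table of spatial statistics, from which only Moran's I, a score deposited by the authors, was used. The labels call the sections fresh frozen and also describe punches fixed in PFA. Summed counts in that table equalled the matrix sums over tissue spots for all 13804 genes of NHP1 and all 12542 of NHP2. Tissue spots held 1484784 UMIs in NHP1 and 805726 in NHP2, where 4 had none.

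The collagen members and all gene lists were chosen with earlier results of these data known. Spots of each section were clustered without collagens (Python 3.11.15, numpy 2.4.6, scipy 1.17.1, pandas 2.3.3, scanpy 1.11.5, leidenalg 0.10.2, with matplotlib 3.10.9 for the plots), with counts scaled to 10000 UMIs per spot and log1p, 2000 variable genes, 20 principal components, 15 neighbours and a Leiden resolution of 1. A region took the label of a class through 3 or more of its markers with 3 UMIs and a level 1.5 times that of the other spots, unless its leading 10 genes went against it. The tie of the choroid-marker region was broken by MLANA among its leading genes. No doublet caller was run, since a spot can hold several cells.

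Intervals are exact at 95%, Poisson for UMI sums, Clopper-Pearson for shares and conditional binomial for ratios, whose calculation was tested on simulated data. Named chains had 20 UMIs in a section, and rarer chains were given by count. Pieces are tissue spots joined within 2.1 spacings. CTSK was not in the reference. COL17A1 was not placed on a chromosome in the annotation used, and 40 of 41 chains were. Alternatives were another resolution, collagens kept in clustering, spots with 200 UMIs, marker shares in place of clusters, other denominators, UMIs per spot, minimums of 5 and 50 UMIs, single pieces, spots off tissue, and for shares 2 UMIs and thinning. The inner retina alone, sclera-marker spots without their richest 10%, and pieces for the last 2 ratios were chosen after seeing the data. The sequence before the start of COL1A1 is not reported here.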

Additional observations from a re-analysis of the deposited data

Results flagged for a closer look

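Collagen UMIs also lay on spots not marked as tissue, which were part of no layer and were only set beside the layers as background. There were 258 in NHP1, at 4.93 per 10000 UMIs of those spots, and 126 in NHP2, at 16.4 per 10000. Both sums exceed 3 UMIs, the limit set for genes without counts.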

How the results depend on the processing

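No paired analysis was possible because each animal gave 1 section, so that the groups share fewer than 2 replicate numbers. Fibrillar, beaded filament, COL1A1, COL1A2 and COL6A2 levels were at least 2-fold higher in the sclera-marker region than in the neural retina under 11 of 11 alternatives in NHP1 and 10 of 10 in NHP2. NHP2 over NHP1 was at least 2-fold in sclera-marker spots for all chains and for these under 10 of 10, but piece numbers do not correspond between animals, and beaded filament and COL6A2 were 1.72 and 1.78 for piece 2 of NHP2 over piece 1 of NHP1. The sclera-marker level of all chains (22.3 in NHP1 and 87.0 in NHP2) was 27.8 and 106 without mitochondrial and the 50 most abundant genes, 1.87 and 6.65 per spot, 17.5 and 70.5 without the richest 10% of spots, and 80.8 in NHP2 with collagens kept in clustering. Off tissue it was 4.93 and 16.4, and farther than 3 spacings 4.38 and 17.5. In NHP1 it was 10.9 and 32.3 by piece. The ratio to the neural retina (6.02 and 25.7) was 1.19 and 1.56 as UMIs per spot, 4.74 and 20.8 without the richest 10%, and 7.76 and 2.99 in pieces 1 and 2 of NHP1. As UMIs per spot the NHP2 ratio fell below 1 for FACIT (0.175), multiplexin (0.161), COL16A1 (0.336), COL18A1 (0.161) and COL4A2 (0.145), and the NHP1 ratio for FACIT (0.282), COL16A1 (0.353) and type IV (0.200). The choroid-marker to sclera-marker ratio (0.611) was 0.376 by marker shares, 1.38 per spot, 0.776 without the richest 10%, and 0.482 and 1.05 by piece. For COL9A1 it turned to 1.23 by marker shares and for COL9A2 to 0.953 in piece 2. The ratio between animals (3.91) was 2.62 and 8.13 with each piece by itself. The share of spots with a collagen UMI was 38.6% and 47.7% at 2 UMIs, 6.40% and 30.8% after thinning and 83.7% in NHP2 spots with 200 UMIs. Chains at least 2-fold higher in the sclera-marker region went from 3 to 7 of 13 in NHP1 at a minimum of 5 UMIs and from 6 to 3 in NHP2 per spot. Chains at most 0.5 went from 0 to 5 in NHP1 and from 1 to 4 in NHP2 per spot, and in NHP2 were 3 at a minimum of 5 and 0 at 50. For choroid-marker over sclera-marker, 3 higher became 5 at a minimum of 5 and 1 in piece 1, and 3 lower became 0 per spot, 5 at a minimum of 5 and 1 in piece 2. Piece 1 of NHP2 held no neural retina, and with 0 sclera-marker UMIs COL18A1 in piece 2 and COL9A2 in piece 1 of NHP1 gave no ratio over them. The causes were not tested. With 874 and 1733 collagen UMIs, the depth leaves rare chains and single regions with wide intervals.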
